A study of Mus musculus with 16 samples.

Results

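The clustered protocadherin genes were described in RNA sequencing of mouse mammary organoids. Members were the protein-coding genes whose symbol is Pcdha, Pcdhb, Pcdhga, Pcdhgb, Pcdhgc or Pcdhac followed by a number. The rule found 57 of the 55487 gene identifiers in the count table. These were 12 alpha genes, 22 beta genes, 12 gamma A genes, 6 gamma B genes and 5 C-type genes (Pcdhac1, Pcdhac2, Pcdhgc3, Pcdhgc4 and Pcdhgc5). Pcdhgb8 has a matching name but is typed as a polymorphic pseudogene and was not a member. The family was chosen because Pcdhgc3 was low in HER2 mutants, so every comparison with the HER2 single mutants is given as a description, and counts of members past the threshold there are not used as tests.

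Organoids are small structures that dissociated tissue cells build in culture. There were 3 libraries from wild-type (WT) organoids of normal breast, and the mutant organoids came from breast tumors, with 4 PIK3CA, 4 HER2 and 5 double mutant libraries. The series title names the alleles HER2 V777L and PIK3CA H1047R. The labels give no age, strain, promoter or Cre driver, and do not say whether the replicates came from separate mice or cultures. P-values therefore measure the spread between these libraries, which may be technical. Genotype and tissue source cannot be told apart in any comparison with WT. The growth medium of all organoids contained murine EGF and a conditioned medium with Rspo1 and Noggin.

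Clustered protocadherins are cadherin-related adhesion proteins that bind the same isoform on a neighbouring cell. In mouse they lie in a row of alpha, beta and gamma clusters on chromosome 18. Each alpha and gamma gene has its own promoter and variable exon, which encodes the outer and membrane-spanning parts and is spliced to constant exons that its cluster shares. Each beta gene is a single exon. In neurons, most alpha, beta and gamma A and B genes are switched on in single cells by a chance choice of promoters that depends on CTCF, cohesin and DNA methylation, while C-type genes follow other rules. The family is best known for telling a neuron's own branches from those of others, and its promoters are often methylated in tumors.

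Total counts per library ranged from 45545182 to 64168308, and the members together took 0.0115% to 0.0399% of them. Levels are given as CPM, the read counts of a library after scaling for its size and its TMM factor, and 3 counts corresponded to 0.0477 to 0.0667 CPM. The epithelial marker Epcam lay between 479 and 699 CPM in all 16 libraries. Erbb2, which encodes HER2, lay between 145 and 188 CPM in WT and PIK3CA libraries and between 1498 and 4630 CPM in libraries with the HER2 mutation. Among double mutants, replicates 2 and 3 stood apart with 2750 and 2704 CPM, against 1498 to 1648 CPM in the other 3. These are bulk samples, in which fewer cells of a type and less RNA per cell cannot be told apart.

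The clusters follow one another on the plus strand of chromosome 18 (GRCm38). The alpha cluster, from Pcdha1 to Pcdhac2, covers chr18:36930184-37187661. The beta cluster covers chr18:37264938-37524479, and the gamma cluster, from Pcdhga1 to Pcdhgc5, covers chr18:37661793-37841873. Of 1224 annotated genes with no exon base free of another gene on either strand, 1219 (99.6%) had 0 counts in every library, against 20.1% of all 55141 annotated entries. Pcdhga10 was one of these, with 0 counts throughout, and gives no measurement of that gene. The counts of the other alpha and gamma genes therefore come from bases of their variable exons, and the shared constant exons were not counted.

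Of the 57 members, 44 passed the filter on low counts and were tested: 2 alpha, 21 beta, 11 gamma A, 6 gamma B and 4 C-type genes. The other 13 were 10 alpha genes, Pcdhac1, Pcdhb1 and Pcdhga10. The heat map of all members shows a bright gamma cluster, a beta cluster that brightens toward its end and an alpha cluster that is dark in every library but one.

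**Figure D1:**
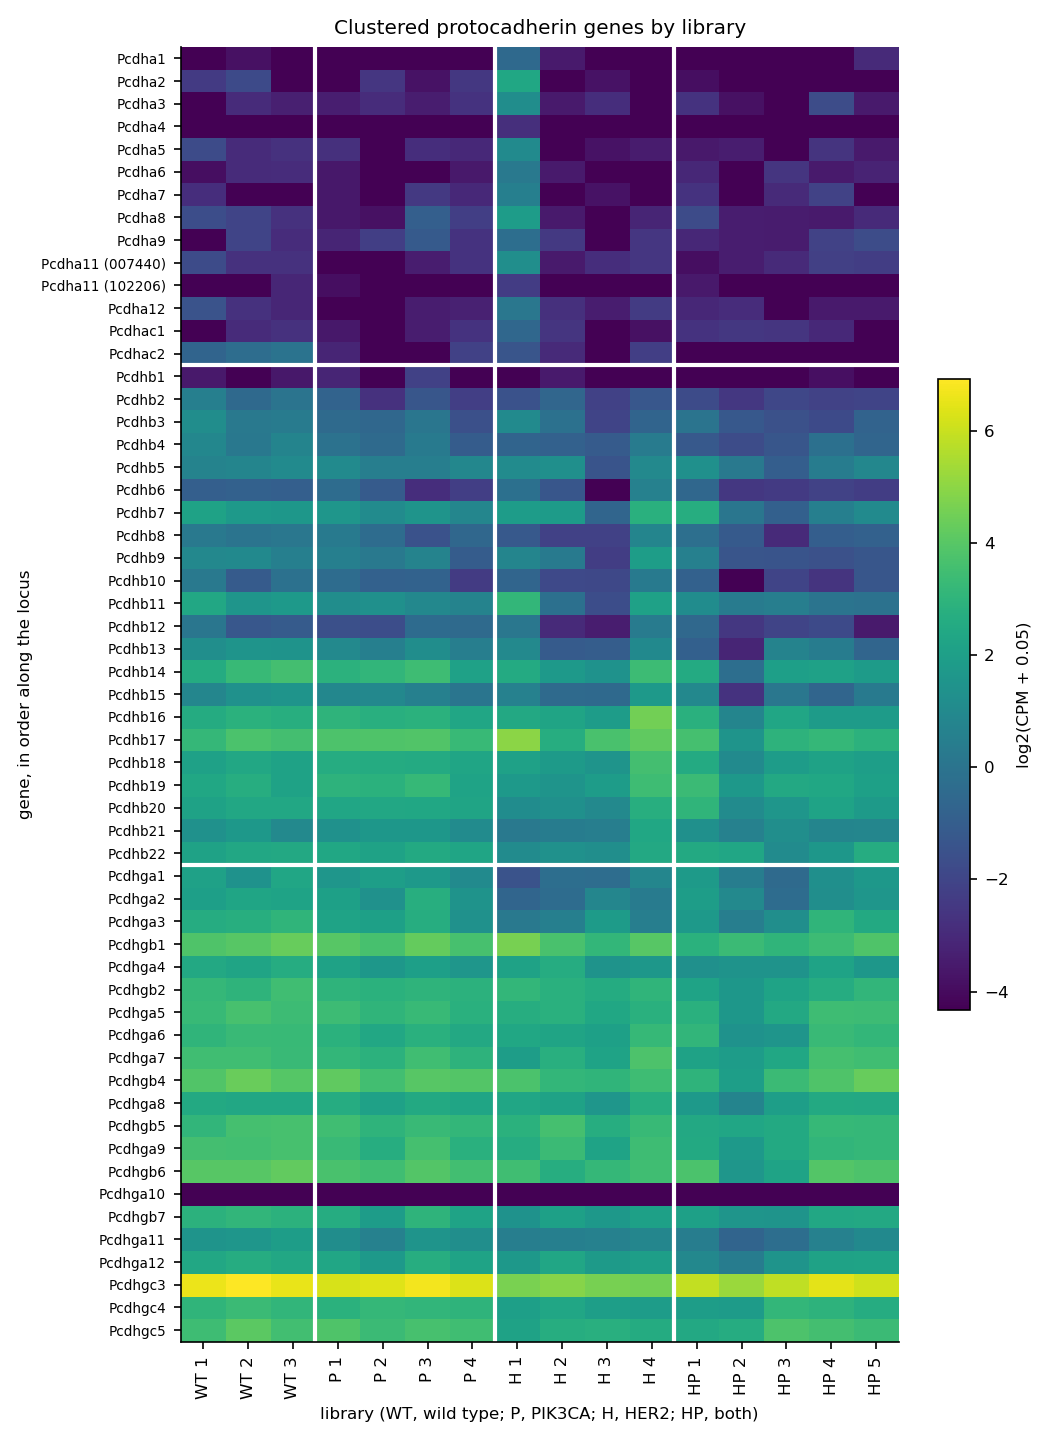
Level of each of the 57 members (rows, in order along the locus) in each of the 16 libraries (columns, by genotype), as log2(CPM + 0.05). White lines separate genotypes and clusters. Pcdhgc3 is the brightest row except in H 1, where Pcdhb17 is brighter, and in H 4, where Pcdhb16 is level with it. The alpha rows are dark except in HER2 replicate 1 (H 1).

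Pcdhgc3 was the dominant member of the family in these organoids. It is a C-type isoform found in many tissues outside the brain, and in neurons it promotes branching of dendrites. The gene (ENSMUSG00000102918) spans chr18:37806364-37841873, the third gene from the end of the gamma cluster. Per kilobase of exon that no other gene shares, its mean level was 56.8 CPM per kb in WT and 47.1 in PIK3CA mutants. The mean was 14.1 CPM per kb in HER2 mutants and 34.2 in double mutants. It exceeded the next member, Pcdhgb1 or Pcdhgb6, 6.79- to 10.8-fold in WT libraries and 6.81- to 9.47-fold in PIK3CA libraries. The excess was 1.49- to 3.90-fold in HER2 and 5.49- to 10.4-fold in double mutant libraries. Of the 50-base windows in their counted bases, 16.8% for Pcdhgb1, 11.9% for Pcdhgb6 and 0% for Pcdhgc3 occur elsewhere among the members. Some reads of Pcdhgb1 and Pcdhgb6 may therefore have been lost or misplaced, and the effect on these ratios was not tested.

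By library, Pcdhgc3 stood at 95.1, 121 and 93.7 CPM in WT and at 75.0, 83.2, 104 and 80.8 CPM in PIK3CA mutants. HER2 mutants gave 25.2, 29.6, 24.6 and 23.3 CPM, and double mutants 58.8, 38.0, 58.3, 87.0 and 69.1 CPM. The HER2 libraries lay below all others with no overlap. Double mutants lay between HER2 and WT without touching either, and overlapped PIK3CA mutants. As a description, the log2 difference from WT was -2.01 ± 0.21 (SE) in HER2 mutants, -0.73 ± 0.20 in double mutants and -0.27 ± 0.21 in PIK3CA mutants. The difference of double from HER2 mutants was 1.28 ± 0.19, with all 5 double mutants above all 4 HER2 mutants.

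The share of all members' counts that fell on Pcdhgc3 shows how the family's make-up differed. It was 29.0% ± 2.59 (SD, n = 3) in WT, 28.8% ± 3.02 (n = 4) in PIK3CA mutants and 28.8% ± 2.82 (n = 5) in double mutants. In HER2 mutants it was 13.0% ± 4.22 (n = 4), with a range of 8.48% to 16.8% that overlapped no other genotype. The lowest share in any other library was 24.4%. BC037039, an antisense gene over the Pcdhgc3 variable exon, had 67 to 129 counts in WT and PIK3CA libraries, 15 to 25 in HER2 and 29 to 101 in double mutant libraries. Of 134 annotated genes with bases free of other genes on their own strand only (500 or more), 132 had 0 counts in every library, and the strand setting of the counting is not given in the sources used here. Reads where exons of the pair overlap may therefore have been counted for neither gene.

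The neighbouring C-type genes Pcdhgc4 and Pcdhgc5 were also low in HER2 mutants. Pcdhgc4 is the isoform that neurons need to survive in development, and Pcdhgc5 is an isoform that binds synaptic GABA-A receptors. Pcdhgc4 had 8.18, 10.1 and 8.30 CPM in WT, 7.25, 8.90, 8.52 and 7.84 in PIK3CA, 3.96, 4.91, 3.89 and 3.62 in HER2 and 3.83, 3.59, 8.67, 7.66 and 6.16 in double mutants. Pcdhgc5 had 10.8, 16.9 and 11.2 CPM in WT, 14.3, 10.1, 12.7 and 11.2 in PIK3CA, 4.39, 6.38, 6.70 and 6.06 in HER2 and 5.46, 6.12, 13.5, 11.6 and 9.97 in double mutants. Double mutant replicates 1 and 2 lay close to the HER2 libraries for both genes, and the other 3 were higher.

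HER2 mutants overlapped neither WT nor PIK3CA mutants for Pcdhgc4 and Pcdhgc5. The log2 difference of HER2 mutants from WT was -1.11 ± 0.27 (SE) for Pcdhgc4 and -1.14 ± 0.29 for Pcdhgc5. For double mutants against WT, the differences of -0.56 ± 0.26 and -0.47 ± 0.28 did not pass the test, with adjusted p of 0.169 and 0.291. Against PIK3CA mutants, the double mutants' differences were -0.44 ± 0.24 and -0.37 ± 0.25, with adjusted p of 0.486 and 0.621.

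**Figure D2:**
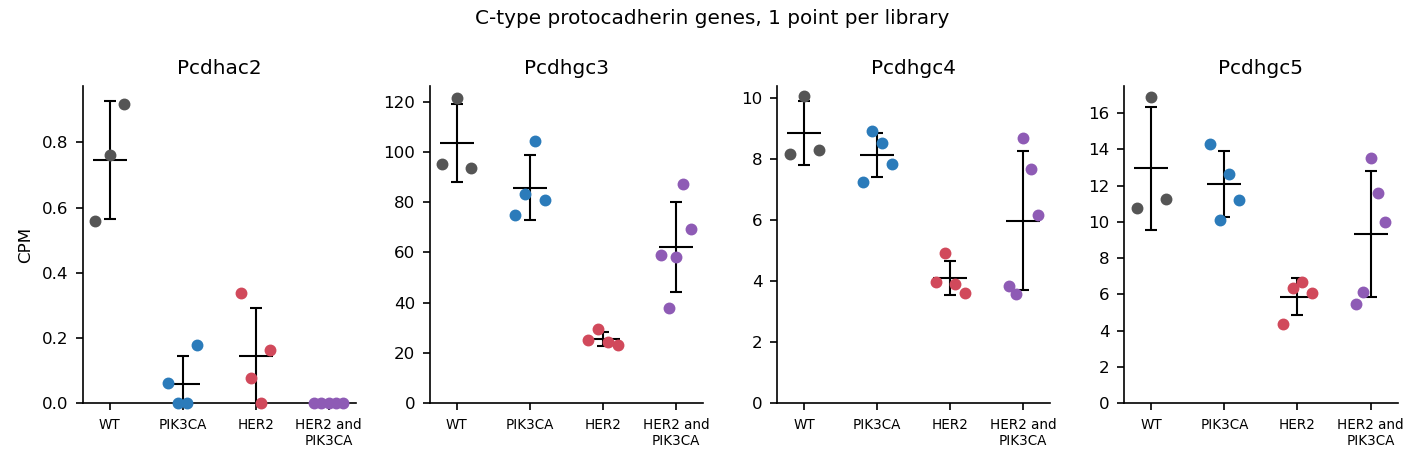
Level in CPM (vertical axes, each from 0) of the 4 tested C-type genes by genotype, with 1 point per library, a bar at the mean and whiskers of 1 SD. Pcdhgc3, Pcdhgc4 and Pcdhgc5 are lowest in HER2 mutants, and Pcdhac2 is at 0 in all 5 double mutants.

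Pcdhac2, the last gene of the alpha cluster, fell in double mutants against WT. It is the isoform by which serotonergic axons spread apart to cover their targets. The gene (ENSMUSG00000102697) spans chr18:37143503-37187657. WT libraries had 32, 38 and 55 counts, PIK3CA libraries 4, 0, 0 and 10, and HER2 libraries 18, 4, 0 and 8. All 5 double mutants had 0 counts. Every mutant library lay below every WT library, and the highest mutant level was 0.339 CPM in HER2 replicate 1 against 0.559 CPM in the lowest WT library. Pcdhac2 passed the test in double mutants against WT (adjusted p = 0.00454). It had passed the filter on low counts only through its WT libraries, where it was high, which limits what this call shows. With 3 counts over the 5 double mutant libraries as the floor, it was at least 65.0-fold lower there than in WT. Its difference between PIK3CA mutants and WT, -3.52 ± 1.10 on the log2 scale, had an adjusted p of 0.107. Pcdhac1, its neighbour, was not tested and stayed at or below 0.622 CPM in every library.

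The beta genes are intronless and need no splicing to constant exons. They were more abundant toward the end of the cluster: the mean over all 16 libraries ran from 0.00884 to 0.828 CPM per kb over the first 11 genes and from 0.394 to 2.60 CPM per kb over the last 11. Pcdhb1, the first gene, had the lowest mean, and Pcdhb17 the highest. Summed over the 22 genes, WT had 72.4 ± 3.78 CPM (SD, n = 3), PIK3CA 67.2 ± 11.8 (n = 4), HER2 69.0 ± 40.6 (n = 4) and double mutants 45.4 ± 18.9 CPM (n = 5). The HER2 libraries spread from 34.9 to 121 CPM and enclosed the whole WT range.

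Pcdhb2 fell in double mutants against WT. The gene (ENSMUSG00000051599) spans chr18:37294812-37297624 near the start of the cluster. WT libraries had 1.4, 0.660 and 0.967 CPM, and double mutants had 0.248, 0.126, 0.216, 0.185 and 0.194 CPM. PIK3CA mutants had 0.556, 0.103, 0.354 and 0.161 CPM, and HER2 mutants 0.302, 0.597, 0.178 and 0.368 CPM. All WT libraries lay above all 13 mutant libraries. The log2 difference of double mutants from WT was -2.36 ± 0.49 (SE), a 5.14-fold lower level, with an adjusted p of 0.00531. In PIK3CA mutants it was -1.76 ± 0.51 with an adjusted p of 0.0659, which did not pass.

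Pcdhb4, another beta gene a short way on at chr18:37307455-37311172 (ENSMUSG00000045689), also fell. It had 1.82, 1.10 and 1.65 CPM in WT, 0.906, 0.681, 1.17 and 0.428 in PIK3CA and 0.566, 0.520, 0.423 and 1.23 in HER2 mutants. The double mutants had 0.390, 0.252, 0.353, 0.849 and 0.583 CPM and did not overlap WT. The log2 difference of double mutants from WT was -1.64 ± 0.43 (adjusted p = 0.0216). This call was lost in 3 of 16 alternatives: without WT replicate 1, without WT replicate 3 and without double mutants 2 and 3, where the adjusted p reached 0.0981.

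The beta genes with the highest mean CPM, not scaled for length, did not pass in any tested comparison. Per length, Pcdhb14, at 0.708 CPM per kb, was not among the highest. Pcdhb17 had 8.84, 13.1 and 11.9 CPM in WT, 13.8, 14.2, 14.7 and 9.55 in PIK3CA, 31.6, 6.42, 12.9 and 18.0 in HER2 and 12.1, 2.77, 7.75, 8.88 and 7.54 in double mutants. Pcdhb16 had 6.03, 7.16 and 6.67 CPM in WT, 7.87, 6.73, 7.13 and 5.04 in PIK3CA, 5.41, 4.68, 3.63 and 23.3 in HER2 and 7.09, 1.70, 5.04, 3.60 and 3.60 in double mutants. HER2 replicate 1 was thus highest for Pcdhb17 and HER2 replicate 4 for Pcdhb16, and double mutant replicate 2 was lowest for both. Pcdhb14 had 9.09 ± 2.96 CPM in WT, 7.65 ± 2.60 in PIK3CA, 5.55 ± 3.51 in HER2 and 3.68 ± 1.82 in double mutants. All 5 double mutants lay below WT for Pcdhb14, with a log2 difference of -1.30 ± 0.50 and an adjusted p of 0.107.

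Gamma A and gamma B genes were more even along their cluster. The 11 gamma A genes with counted bases had means of 0.851 to 3.21 CPM per kb, and the 6 gamma B genes 1.90 to 5.31 CPM per kb. Summed gamma A levels were 77.4 ± 3.46 CPM (SD) in WT, 59.9 ± 12.6 in PIK3CA, 45.0 ± 11.4 in HER2 and 47.3 ± 20.2 in double mutants. Summed gamma B levels were 78.3 ± 7.81 CPM in WT, 65.3 ± 10.1 in PIK3CA, 54.9 ± 11.4 in HER2 and 47.2 ± 17.5 in double mutants. For gamma A, all HER2 and double mutant libraries (23.4 to 69.7 CPM) lay below all WT libraries (73.8 to 80.7 CPM). For gamma B, the WT libraries began at 69.7 CPM and overlapped double mutant replicate 5, at 70.1 CPM.

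Pcdhga11 and Pcdhgb7 fell in double mutants against WT. Pcdhga11 (ENSMUSG00000102742, chr18:37755731-37841873) had 2.80, 2.98 and 3.82 CPM in WT and 1.31, 0.566, 0.785, 1.50 and 1.96 CPM in double mutants. PIK3CA mutants, at 1.51 to 2.74 CPM, and HER2 mutants, at 1.34 to 1.76 CPM, also lay below WT throughout. The double mutants' log2 difference from WT was -1.38 ± 0.33, a 2.61-fold lower level (adjusted p = 0.0118). The call held in 15 of 16 alternatives and was lost without WT replicate 3, with an adjusted p of 0.0766 (range over the alternatives, 0.000784 to 0.0766).

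Pcdhgb7 (ENSMUSG00000104063, chr18:37751600-37841873), just upstream of it, had 7.36, 8.30 and 7.45 CPM in WT and 4.15, 2.83, 2.77, 5.30 and 5.40 CPM in double mutants. The 2 genotypes did not overlap, and the log2 difference was -0.91 ± 0.28 (adjusted p = 0.0467). This call was close to the threshold and was lost in 10 of 16 alternatives, over which the adjusted p ran from 0.0201 to 0.178. The more abundant gamma B genes Pcdhgb1, Pcdhgb4 and Pcdhgb6 had log2 differences of -0.73 ± 0.29, -0.60 ± 0.36 and -0.77 ± 0.40 in double mutants against WT, with adjusted p of 0.111, 0.301 and 0.230.

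The first 3 genes of the gamma cluster were the lowest gamma A genes in HER2 mutants per length, at 0.317, 0.418 and 0.708 CPM per kb. They were also among the lower gamma A genes in WT, at 1.38, 1.74 and 2.67 CPM per kb, with Pcdhga12 at 1.35 and Pcdhga11 at 2.55. Pcdhga1 had means of 3.93 ± 1.20 CPM in WT and 0.901 ± 0.598 in HER2 mutants, Pcdhga2 4.48 ± 0.415 and 1.08 ± 0.531, and Pcdhga3 6.95 ± 1.06 and 1.84 ± 1.12. Their log2 differences were -2.12 ± 0.54, -2.06 ± 0.48 and -1.92 ± 0.53. These 3 genes were picked after the values were seen, in the contrast that drew attention to the family, so the differences are a description. In double mutants Pcdhga1 ranged from 0.687 to 3.49 CPM, Pcdhga2 from 0.726 to 3.74 CPM and Pcdhga3 from 1.34 to 8.16 CPM. The next gene along, Pcdhgb1, had 24.4, 13.0, 8.54 and 15.9 CPM in HER2 mutants and overlapped WT (14.2 to 19.9 CPM).

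**Figure D3:**
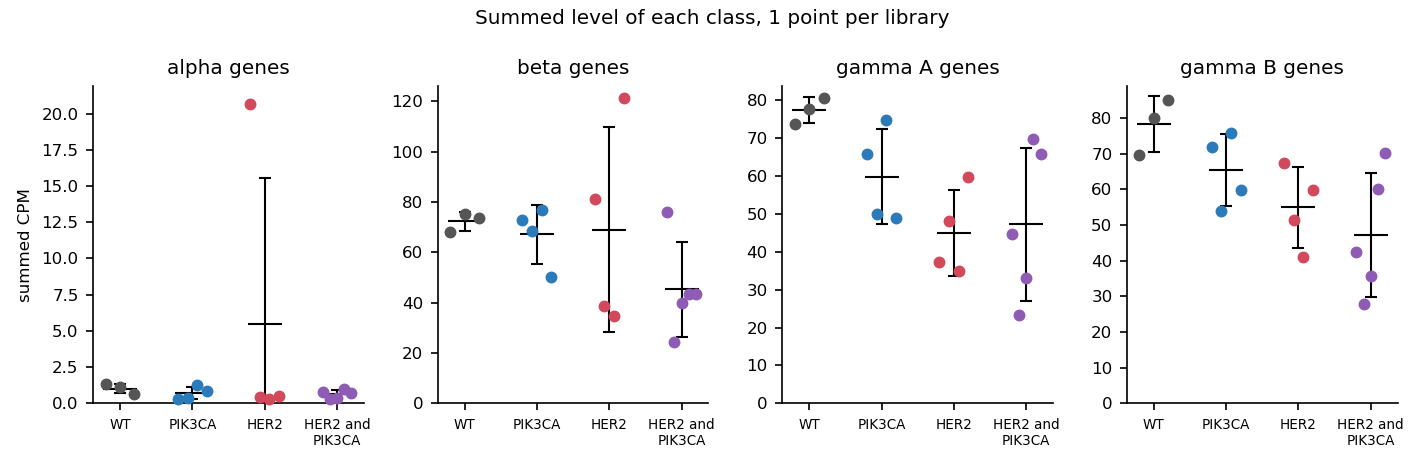
Summed CPM (vertical axes, each from 0) of the alpha, beta, gamma A and gamma B genes by genotype, with 1 point per library, a bar at the mean and whiskers of 1 SD, cut at 0. The gamma A sums of all HER2 and double mutant libraries lie below WT, the beta sums of HER2 libraries spread from 34.9 to 121 CPM, and 1 HER2 library stands alone in the alpha sum.

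Counted over the tested members, no gene passed in PIK3CA mutants against WT (edgeR, 0 of 44, against 4.52% of all 24252 tested genes in either direction). At an unadjusted p under 0.05 there were 2, Pcdhb2 and Pcdhac2, against 16.8% of all tested genes, and DESeq2 called 1 and limma 2. In total 37 of 44 members had a log2 difference below 0, with a median of -0.29 against -0.03 over all tested genes. All 4 PIK3CA libraries lay below all WT libraries for 10 members (22.7%), against 15.7% of all tested genes, and for no member did all lie above.

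In double mutants against WT, 6 of 44 tested members (13.6%) were called lower and 0 higher, against 6.72% of all tested genes called lower and 5.03% higher. The 6 were Pcdhac2, Pcdhb2, Pcdhb4, Pcdhga11, Pcdhgb7 and Pcdhgc3. Pcdhgc3 is the gene for which the family was chosen, and without it the count was 5 of 43 (11.6%). The log2 difference was below 0 for 42 of 44 members, with a median of -0.78 against 0.01 over all tested genes. For 16 of 44 (36.4%), all double mutants lay below all WT libraries, against 13.4% of all tested genes. Of the 6 calls, 3 remained without double mutants 2 and 3 (Pcdhac2, Pcdhb2 and Pcdhga11), and leaving out 1 library at a time gave 2 to 7 calls. The fewest, 2, came without WT replicate 3, and 3 came without WT replicate 1. Pcdhb2 and Pcdhac2 were called in all 16 alternatives, but Pcdhac2 had passed the filter on low counts only through its WT libraries. Pcdhgc3 was no longer past the threshold in 6 of 16: with a replicate block, with only the 2 genotypes, without each WT replicate in turn and without double mutants 2 and 3.

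In double mutants against PIK3CA mutants, 0 of 44 members were called by edgeR, and 0 by DESeq2 and limma, against 0.672% of all tested genes in either direction. At an unadjusted p under 0.05 there were 7 of 44 members, against 12.4% of all tested genes. The log2 difference was below 0 for 43 of 44 members, with a median of -0.49 against 0.04 over all tested genes, and the 2 genotypes overlapped for every member, while 4.5% of all tested genes had all double mutants below all PIK3CA mutants.

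As a description of the contrast that drew attention to the family, 7 of 44 members were past the same threshold in HER2 mutants against WT, all lower, beside 5.63% of all tested genes, and 6 of 43 without Pcdhgc3. They were Pcdhgc3, Pcdhgc4, Pcdhgc5, Pcdhga1, Pcdhga2, Pcdhga3 and Pcdhgb7. No beta gene was among them. Against PIK3CA mutants, 4 of 44 were past it (Pcdhgc3, Pcdhgc4, Pcdhgc5 and Pcdhga2), beside 2.2% of all tested genes, and 3 of 43 without Pcdhgc3. In double mutants against HER2 mutants, Pcdhgc3 was past it, higher in double mutants, beside 1.03% of all tested genes, and 0 of the other 43 were. These counts rest on the values that chose the family, and nothing is read from them.

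**Figure D4:**
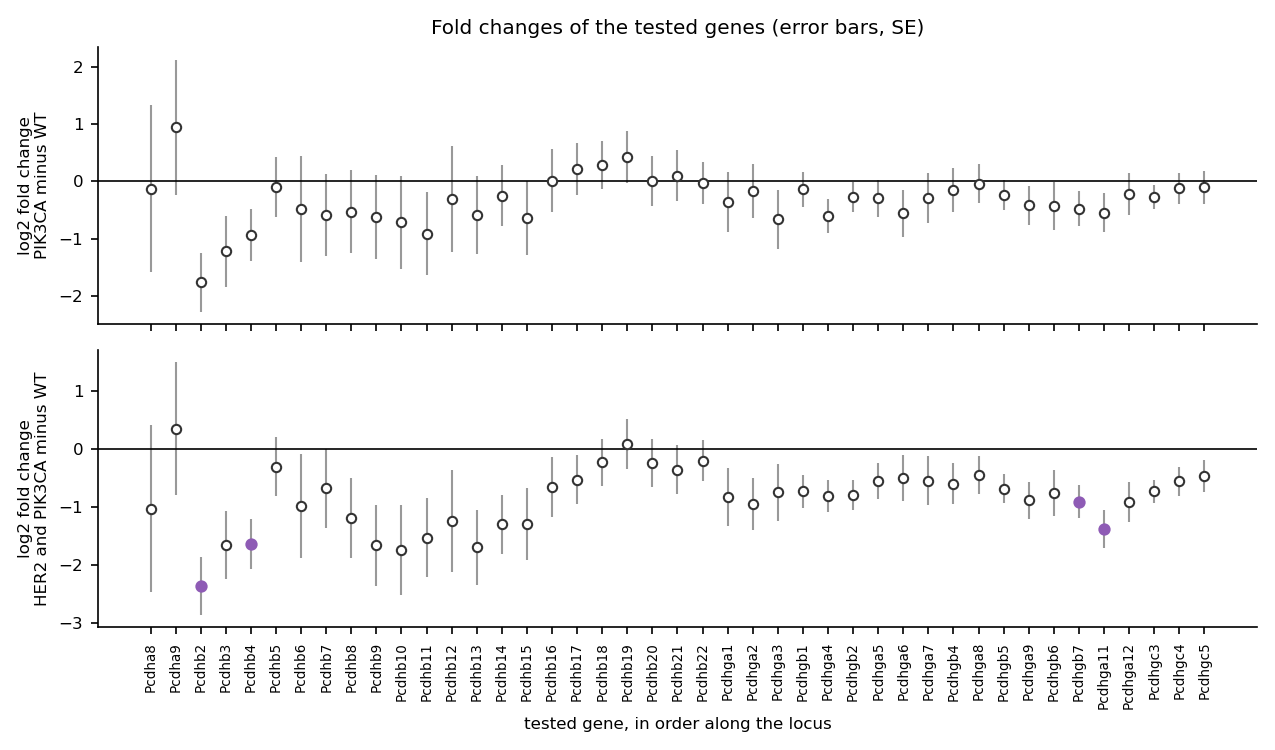
Log2 fold change (points) ± SE (bars) of 43 tested members in order along the locus, for PIK3CA mutants against WT (top) and double mutants against WT (bottom). Filled points passed the test at an adjusted p under 0.05; Pcdhgc3 is drawn unfilled because it was chosen, and Pcdhac2, at 0 in all double mutants, is not drawn. Beta genes up to Pcdhb15 lie below 0 in both panels, and those from Pcdhb16 on lie between -0.03 and 0.43 in the top panel and between -0.65 and 0.08 in the bottom panel.

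Set against WT, the fold changes of beta genes were not the same along the cluster, with a division at Pcdhb16 that was chosen after the values were seen and was not tested. From Pcdhb2 to Pcdhb15, all 14 genes had a log2 difference below 0 in double mutants against WT, from -2.36 to -0.31 with a median of -1.42. From Pcdhb16 to Pcdhb22, the 7 genes ran from -0.65 to 0.08 with a median of -0.24. In PIK3CA mutants against the same WT libraries, the first 14 had a median of -0.61 and the last 7 a median of 0.10. Double mutants lay below WT without overlap for 7 of the first 14 genes and 0 of the last 7, beside 13.4% of all tested genes. Without WT, the comparisons differed. In double against PIK3CA mutants all 21 genes were below 0, with medians of -0.66 for the first 14 and -0.46 for the last 7. As a description, double against HER2 mutants gave medians of -0.81 (14 of 14 below 0) and -0.18 (4 of 7 below 0). HER2 mutants against PIK3CA mutants gave medians of 0.24 and -0.28.

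Single libraries carried much of the spread. Of the 44 tested members, 20 had their lowest level of all 16 libraries in double mutant replicate 2, against 9.44% of all tested genes. These included 8 beta, 7 gamma A, 4 gamma B and 1 C-type gene. At the other end, 13 tested members were highest in HER2 replicate 4, of which 11 were beta genes, against 8.55% of all tested genes. That library had the highest beta sum, 121 CPM, while its Pcdhgc3 level of 23.3 CPM was the lowest of all.

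The alpha genes were close to the floor of 3 counts in 15 of 16 libraries. In HER2 replicate 1 the 12 alpha genes summed to 20.6 CPM (1095 counts). In the other 15 libraries the sum was 0.273 to 1.31 CPM, or 13 to 75 counts, and in the other 3 HER2 libraries it was 0.401 ± 0.103 CPM (SD). All 12 alpha genes had their highest level in HER2 replicate 1, against 10.5% of all 44253 entries with a count. The count table gives the symbol Pcdha11 to 2 identifiers, and both are included. RefSeq names the first of them, ENSMUSG00000007440, Pcdha10 by its Entrez identifier.

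By gene, Pcdha2 had 274 counts in HER2 replicate 1 and at most 12 in any other library. Pcdha8 had 194 against at most 22, and the entry ENSMUSG00000007440, Pcdha11 in the count table and Pcdha10 in RefSeq, 122 against at most 14. Pcdha4 had 5 counts there and 0 in all 15 others. The alpha genes share long stretches of sequence: a median of 14.8% and up to 25.5% of the 50-base windows in their counted bases occur elsewhere among the members, so some reads may have been lost or placed on a relative.

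**Figure D5:**
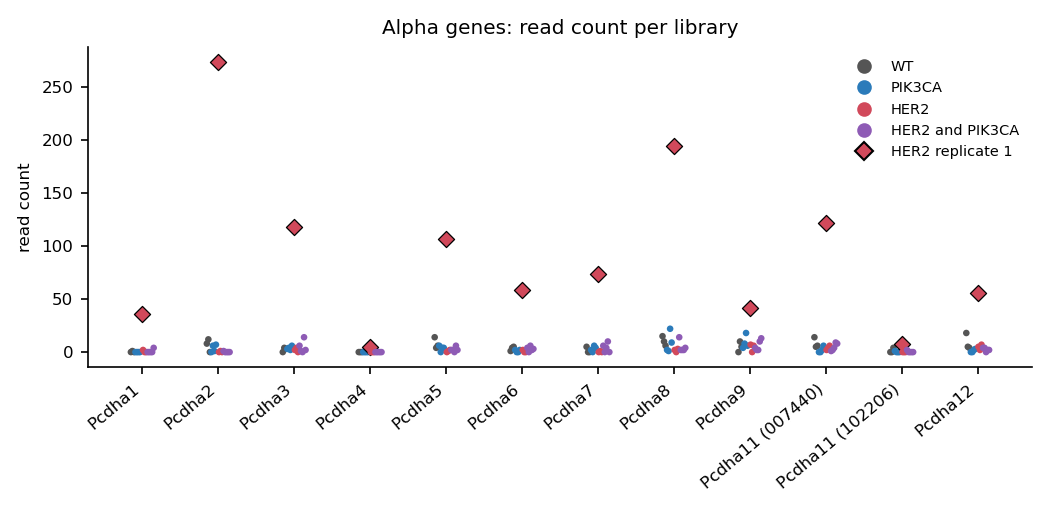
Read count (vertical axis) of each alpha gene (horizontal axis, in order along the locus) in each of the 16 libraries. The diamond is HER2 replicate 1, which is above all other libraries for each of the 12 genes.

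Alpha protocadherins are best known from neurons, so neuronal markers were read beside them. Summed over 8 neuronal markers, HER2 replicate 1 had 1.43 CPM, within the range of 0.612 to 3.68 CPM of the other libraries. Of the 8, Rbfox3, which encodes the neuronal nuclear protein NeuN, was highest in that library, at 1.02 CPM against 0.0614 to 0.673 CPM elsewhere. Syt1, Gap43 and Nefl had no count in it. Pcdhac1, next in the cluster, was also highest in HER2 replicate 1, at 0.622 CPM. The same library had the highest level of Dnmt3a, a DNA methyltransferase gene, at 205 CPM against 76.9 to 135 CPM elsewhere. Dnmt3a is 1 of 24 listed genes that shape promoter choice and silencing. Of these, Trim28, Uhrf1 and Smc3 were also highest in HER2 replicate 1, and Smchd1, Lrif1, Nipbl, Mau2 and Wapl were lowest in it. HER2 replicate 1 had the highest level for 13.6% and the lowest for 14.0% of all tested genes. The part of these in the alpha levels was not tested.

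Markers of other cell types also differed between mutants and WT. Summed over 8 fibroblast markers, WT libraries had 362 to 1995 CPM, PIK3CA 110 to 536, HER2 41.0 to 637 and double mutants 51.8 to 181 CPM. In double mutants against WT, 6 of 8 were called lower, and Lum was at 0 in 3 of the 5 libraries. Summed over 8 immune markers, WT had 497 to 3014 CPM, PIK3CA 13.9 to 36.9, HER2 9.27 to 183 and double mutants 12.8 to 68.0 CPM. There, 6 of 7 tested were called lower in double mutants and 6 of 7 in PIK3CA mutants, and Adgre1, a macrophage marker, was at 0 in 2 double mutants. Of the 6 pericyte markers, 5 were called lower in double mutants against WT and 1, Notch3, higher. The sums of 212 to 389 CPM in double mutants and 233 to 309 CPM in WT were mostly Notch3. Notch3 alone had 207 to 384 CPM in double mutants and 145 to 213 CPM in WT. Of 5 tested endothelial markers, 3 were called lower, with sums of 1.00 to 1.85 CPM against 6.86 to 29.3 CPM in WT. Summed Schwann cell markers were 520 to 700.2 CPM in double mutants and 717 to 846 CPM in WT, with 1 of 6 called lower and 1 higher. Summed luminal markers were higher than in WT (1947 to 2276 CPM) in every PIK3CA library (3002 to 3501 CPM) and every double mutant library (2499 to 4378 CPM), with 1 of 8 called higher in double mutants and 0 in PIK3CA mutants. In HER2 mutants they were 1931 to 2632 CPM.

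Among the WT libraries, replicate 1 had the lowest fibroblast sum, 362 CPM, and the highest levels of Pcdhb2 and Pcdhb4. Its Pcdhac2 level, 0.559 CPM, was the lowest of the 3 WT libraries. Of the PIK3CA libraries, replicate 4 had the highest fibroblast sum, 536 CPM, and the highest Pcdhac2 level, 0.179 CPM. Of the HER2 libraries, replicate 1 had the lowest fibroblast sum, 41.0 CPM, and the highest Pcdhac2 level, 0.339 CPM, and replicate 4 had the highest sum, 637 CPM, with 0.164 CPM of Pcdhac2. WT replicate 2 had the lowest immune sum of the WT libraries, 497 CPM, and the lowest Pcdhb2 and Pcdhb4 levels of the 3. The part of these cell types in the members' differences from WT was not tested.

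Some basal markers, like Pcdhgc3, were low in HER2 mutants. Summed basal markers were 260 to 972 CPM in HER2 mutants, against 473 to 1019 CPM in WT, 501 to 1374 CPM in PIK3CA and 555 to 1020 CPM in double mutants. Of the 8 markers, Krt5, Myh11 and Cnn1 were past the threshold, lower, in HER2 mutants against WT, and these 3 and Acta2 against PIK3CA mutants. Krt5, a basal keratin gene, had 14.1 to 52.0 CPM in HER2 libraries, 131 to 345 in WT, 99.6 to 411 in PIK3CA and 68.9 to 346 in double mutants, so that HER2 mutants lay below all others. Krt17 went the other way, with 11.9 to 105 CPM in HER2 and 5.54 to 20.2 CPM in WT, and Krt14, Trp63 and Oxtr overlapped WT. HER2 replicate 1 had the highest basal sum of its genotype, of which Krt14 gave 507 CPM, and its Krt5 level was 44.8 CPM. WT replicate 3 and double mutant replicate 2 had the lowest basal sum and the lowest Pcdhgc3 level of their genotypes. PIK3CA replicate 3 and HER2 replicate 2 had the lowest basal sum but the highest Pcdhgc3 level of theirs. The part of basal cells in the Pcdhgc3 level was not tested.

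Of 18 genes next to the clusters, 2 were called lower in double mutants against WT, Arap3 and Tmco6, and 0 higher. The median log2 difference of the 18 was -0.21. Beside this and the lists that follow, 6.72% of all tested genes were called lower in that comparison and 5.03% higher. Of 10 tested protocadherin genes outside the clusters, 2 were called lower and 1 higher. The non-clustered Pcdh18 rose from 26.3 ± 7.29 CPM in WT to 99.1 ± 30.3 CPM in double mutants (log2 difference 1.91 ± 0.38, adjusted p = 0.00395). Pcdh20 (-6.33 ± 1.21, adjusted p = 0.00315) and Pcdh19 (-2.52 ± 0.69, adjusted p = 0.0263) fell. Pcdh20 had 0.559 to 2.23 CPM in WT and at most 0.231 CPM in any mutant library. Like Pcdhac2, it had passed the filter on low counts only through its WT libraries, where it was high, which limits what its call shows.

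Of 24 tested genes that shape promoter choice and silencing at the clusters, 2 were called higher and 2 lower in double mutants against WT, with a median of 0.01. Dnmt3b (0.84 ± 0.22) and Tet2 (0.44 ± 0.13), which add and remove DNA methylation, rose, while Stag1 (-0.74 ± 0.20), a cohesin subunit, and the maintenance methyltransferase Dnmt1 (-0.50 ± 0.11) fell. Uhrf1, whose protein guides Dnmt1 to replicated DNA, had 5.48 ± 2.22 CPM in WT and 13.7 ± 7.65 CPM in double mutants, a difference of 1.32 ± 0.61 that did not pass (adjusted p = 0.180). Ctcf, whose protein anchors the chosen promoters, had 54.4 to 59.1 CPM in WT and 49.9 to 56.9 CPM in PIK3CA libraries. It had 42.4 to 54.1 CPM in HER2 and 41.0 to 50.0 CPM in double mutant libraries, and was not called in double mutants against WT. In PIK3CA mutants against WT, 2 of 24 were called higher (Tet2 and Pds5b) and 0 lower, beside 4.52% of all tested genes in either direction.

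Of 17 genes whose products cleave protocadherins or act downstream of them, 2 were called lower in double mutants against WT and 0 higher. Cyfip2, a subunit of the WAVE actin-regulating complex, fell from 8.02 CPM to 0.160 CPM (-5.64 ± 0.76, adjusted p = 0.00033). The gamma-secretase gene Psen2 also fell (-1.09 ± 0.25). In PIK3CA mutants against the same WT libraries, 2 of 17 fell, Cyfip2 (-5.28 ± 0.81) and Psen2 (-1.12 ± 0.26). In WT replicates 1 to 3, Cyfip2 had 7.01, 2.94 and 14.1 CPM and Psen2 14.9, 13.8 and 26.7 CPM. The summed immune markers of these libraries were 1306, 497 and 3014 CPM. In HER2 mutants, Psen2 was highest (13.7 CPM) in replicate 4, which had the lowest immune sum (9.27 CPM). The part of immune cells in these differences was not tested. Of 11 classical cadherin and catenin genes tested, 2 were called lower in double mutants, Cdh6 and Cdh11, a cadherin of mesenchymal cells, and 0 higher.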

How the data were processed

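The authors deposited raw read counts by Ensembl identifier for the 16 libraries, and a second, normalized table that was treated as signal. A check showed that each deposited signal value was the count divided by a library size factor (largest relative difference 5.55e-10). Per the submitters' processing notes, bcl2fastq 2.20, STAR 2.0.4b, Subread featureCounts 1.4.5, DESeq2 1.33.5 and the build mm10 were used, with no roles stated. Per the labels' protocols, RNA came from a column kit and libraries from a SMARTer mRNA-seq kit. Of 55774 entries, 287 repeats were dropped.

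Counts were tested with edgeR 4.0.16 in R 4.3.3 (filterByExpr, TMM, quasi-likelihood, two-sided, all 16 libraries in 1 fit by genotype), with Benjamini-Hochberg adjustment over 24252 genes and a threshold of 0.05. SE is the absolute log2 fold change over the square root of F. Positions and the bases free of other genes came from GENCODE M21 (GRCm38). Members and lists were chosen with earlier results of these data known. The genes named were Pcdhgc3, members called in a tested comparison, the 3 most abundant of each class, and at most 4 called genes per list; other members were named after their values were seen. Alternatives were other scalings, no filter, a replicate block, 2 genotypes only, leaving out each library, DESeq2 1.42.0, and limma 3.58.1 on the normalized values (pseudocount 1). Leaving out double mutants 2 and 3 was added after seeing the data. A listed gene that is not reported here was left out of its list of protocadherin-processing genes. The test was checked on simulated data. Replicate numbers were not taken as pairing samples.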

Additional observations from a re-analysis of the deposited data

Results flagged for a closer look

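Of 65 sets of libraries of 1 genotype checked for a library far from the rest, 7 had one. The 3 alpha genes checked were those with the highest means over all libraries, which HER2 replicate 1 had raised. The summed alpha genes contain these 3, so the sets are not independent and no chance rate is set beside the 7. In HER2 replicate 1, Pcdha2 stood at 5.16 CPM, Pcdha8 at 3.66 CPM, the Pcdha11 entry ENSMUSG00000007440 at 2.30 CPM and the summed alpha genes at 20.6 CPM, each far above the other 3 HER2 libraries, of which the highest had 0.0222, 0.0614, 0.123 and 0.491 CPM. In HER2 replicate 4, Pcdhb16 stood at 23.3 CPM against 5.41 CPM in the next library. In double mutant replicate 1, Pcdha8 stood at 0.248 CPM against 0.0778 CPM in the next, and Pcdha2 at 0.0177 CPM against 0, which is below 3 counts.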

How the results depend on the processing

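In PIK3CA mutants against WT, the count of members called was 0 and became 3 with only the 2 genotypes, 1 with DESeq2, 2 with limma and 0 to 1 without 1 library. In double mutants against WT it was 6 and became 3 without double mutants 2 and 3, and 2 to 7 without 1 library. For comparisons with HER2 single mutants the counts past the threshold are a description only. In HER2 mutants against WT, 7 became 3 with only the 2 genotypes and 1 to 9 without 1 library. In HER2 against PIK3CA mutants, 4 became 2 with upper-quartile scaling and 1 to 4 without 1 library. In double against HER2 mutants, 1 became 2 without the filter, 0 with only the 2 genotypes, 4 without double mutants 2 and 3, 2 with DESeq2 and 1 to 2 without 1 library. Log2 differences that changed sign were all of members not called. In PIK3CA mutants against WT, leaving out 1 library moved Pcdha8 from -1.36 to 0.28, Pcdhb16 from -0.072 to 0.13, Pcdhgc5 from -0.22 to 0.14, Pcdhgb1 from -0.28 to 0.0089 and Pcdhgb4 from -0.25 to 0.0055. In double against PIK3CA mutants it moved Pcdha8 from -1.75 to 0.32, and Pcdhgb6 became 0.16 without double mutants 2 and 3. The causes were not tested.

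With the replicate number as a block, 6 members were called in double mutants against WT (4 of the same, without Pcdhgc3 among them) and 0 in the other comparisons among WT, PIK3CA and double mutants. As a description, 8 members were past the threshold in HER2 mutants against WT and 1 each in the other comparisons with HER2 single mutants. With the block, Pcdha8 and Pcdhb16 had log2 differences of 0.42 and -0.14 in PIK3CA mutants against WT. The numbers were not taken as pairing samples, because in no comparison did every same-numbered pair have a correlation of deviations over 0.1. The nearest to it was double against HER2 mutants, with 0.0711 to 0.273 (mean 0.157, 3 of 4 pairs over 0.1) against a mean of -0.041 for different numbers. At most 2 samples of a genotype matched their own number best. Depth limits the alpha genes, Pcdhac1 and Pcdhb1, which are near 3 counts in most libraries.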
